A study of Mus musculus with 4 samples.

Results

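The desmosome genes examined here were 10 genes chosen by name from the 46983 genes listed in every table: the desmosomal cadherins *Dsg2*, *Dsc2* and *Dsc3*, the armadillo proteins *Jup*, *Pkp1*, *Pkp2*, *Pkp3* and *Pkp4*, the plakin *Dsp* and the tetraspan protein gene *Perp*. The rule itself uses gene names and no measured value, but earlier results of these data were known when the genes were chosen, and *Dsp* was among the genes that the study picked out from the same libraries. Bulk RNA-seq was performed on larynxes of E10.5 mouse embryos (32 to 35 somites), with 2 pools from *Shh*-/- embryos, numbered 1 and 2, and 2 pools from WT embryos, numbered 4 and 6. Each pool held 3 larynxes. The mutant pools carried the *Shh*tm1amc null allele, kept on a Swiss Webster background, and the WT pools were also Swiss Webster. The sample labels write the mutant genotype as *Shh*+/-, whereas the series design and the study call these embryos *Shh*-/-, the name used here. The allele is present in every cell of the embryo. The labels call the tissue larynx and the study's methods call it dissected vocal fold tissue, and no cell type was sorted from it. In such bulk samples, fewer cells of a type and less RNA per cell cannot be told apart. Nothing in the labels states how litters were divided between pools, so every p-value measures the spread between these pools.

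Desmosomes are cell-cell junctions that tie the keratin filaments of neighbouring epithelial cells together. Desmogleins and desmocollins are the adhesive cadherins that span the membrane, plakoglobin (*Jup*) and the plakophilins are armadillo-repeat proteins that bind the cadherin tails, and desmoplakin (*Dsp*) links this plaque to keratin. Desmosomes also hold cardiac muscle cells together, and they are taken apart when epithelial cells lose their attachments, the question for which the study compared these larynxes.

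Each level below is a TPM value (an abundance scaled for transcript length that sums to 1000000 in each library). A log2 fold change is *Shh*-/- minus WT on the log2(TPM + 1) scale, from limma fitted to 16972 genes whose mean TPM reached 1 and adjusted over all of them by the Benjamini-Hochberg method. Aligned bases derived from the tables were 1.37 and 3.13 Gb in the *Shh*-/- pools and 2.85 and 2.97 Gb in the WT pools, so *Shh*-/- pool 1 was the shallowest library. As a check of the labels, *Shh* stood at 10.4 and 10.8 TPM in *Shh*-/- and at 23.7 and 42.1 TPM in the WT pools, a log2 fold change of −1.49 (SE 0.28, limma adjusted p = 0.0895). The HH target *Ptch1*, which encodes the HH receptor, was at 12.9 and 13.8 TPM against 57.8 and 55.1 TPM, and fell by 2.0 on the log2 scale (SE 0.12, limma adjusted p = 0.0319). All 15 epithelial markers examined, including *Epcam*, were tested and above 0 in every pool, so the tissue held epithelium in both genotypes.

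In these larynxes the desmosome genes divided by direction, with plaque armadillo genes higher and desmoplakin, the cadherins and *Perp* lower in *Shh*-/-, but no member passed the test. The higher side depended on the processing. After correction for GC content and transcript length, log2 fold changes were 0.50 for *Jup*, 0.21 for *Pkp2*, 0.06 for *Pkp3* and −0.03 for *Pkp4*. On the lower side they were −0.79 for *Dsp*, −0.61 for *Perp*, −0.57 for *Dsg2* and −0.25 for *Dsc2*. *Jup* was at a mean of 54.0 TPM in *Shh*-/- against 28.0 TPM in WT, and *Dsp* at 12.0 against 18.5 TPM. Of the 10 members, 8 passed the filter on low values, while *Pkp1* and *Dsc3* were near 0 in every pool. None of the 8 was called at an adjusted p below 0.05 by limma, against 0.725% of all tested genes (123 of 16972). Of the 8, 5 had an unadjusted p below 0.05 (*Jup*, *Pkp2*, *Pkp3*, *Dsp* and *Dsg2*), a level that 24.8% of all tested genes reached. The pools of the 2 genotypes did not overlap for any of the 8. The *Shh*-/- pools were the higher ones for 4 members, a pattern shown by 38.0% of all tested genes, and the lower ones for the other 4, a pattern shown by 22.7%. The median log2 fold change of the 8 was −0.03, beside 0.08 over all tested genes.

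**Figure D1:**
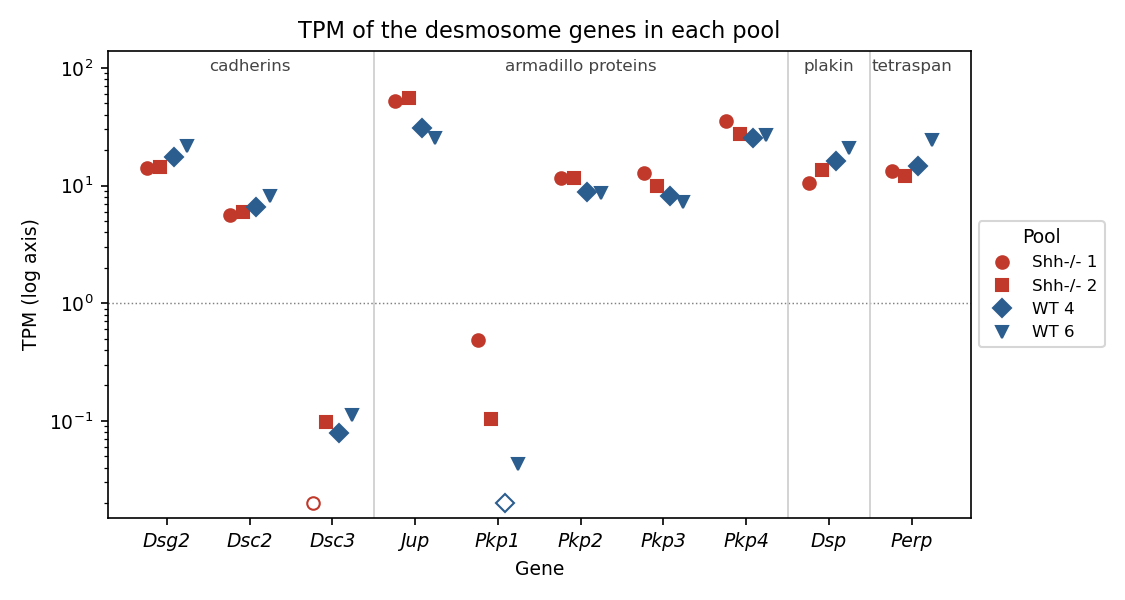
TPM of the 10 desmosome genes in each of the 4 pools (log axis), grouped as cadherins, armadillo proteins, plakin (*Dsp*) and tetraspan protein (*Perp*). Each symbol is 1 pool, open symbols at the bottom of the axis mark genes listed at 0, and the dotted line marks 1 TPM, the mean needed for testing. *Jup* at 52.5 and 55.4 TPM in *Shh*-/- lies above both WT pools, *Dsp* at 10.46 and 13.48 TPM lies below both, and *Pkp1* and *Dsc3* lie under the line in every pool.

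*Dsp* and *Jup* encode the plaque proteins on either side of the cadherin-to-keratin link, and their promoters are shown because their log2 fold changes had opposite signs, at −0.59 for *Dsp* and 0.93 for *Jup*, although neither passed the test. *Perp*, at −0.56, lay close to *Dsp*, and without WT pool 4 it was the lower one (−0.91 against −0.76). The sequences come from RefSeq (GRCm38.p6, equivalent in coordinates to the mm10 build of the tables) and run from 250 bases before the annotated start to 50 bases from it, in the direction of transcription. Of the 10 members, 3 had a promoter in that table (*Dsp*, *Jup* and *Pkp4*). The windows are chr13:38151044-38151343 on the plus strand for *Dsp* and chr11:100397741-100398040 on the minus strand for *Jup*. Capitals mark the letters of the GC box (GGGCGG), the CCAAT box (CCAAT) and the Snail-type E-box (CAGGTG) on either strand.
Dsp promoter: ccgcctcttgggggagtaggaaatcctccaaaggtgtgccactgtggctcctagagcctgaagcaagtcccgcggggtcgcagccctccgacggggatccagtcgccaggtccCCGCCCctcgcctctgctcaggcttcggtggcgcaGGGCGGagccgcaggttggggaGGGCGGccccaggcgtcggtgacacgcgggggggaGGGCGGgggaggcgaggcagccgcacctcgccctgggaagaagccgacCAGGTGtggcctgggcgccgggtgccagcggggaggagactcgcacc
Jup promoter: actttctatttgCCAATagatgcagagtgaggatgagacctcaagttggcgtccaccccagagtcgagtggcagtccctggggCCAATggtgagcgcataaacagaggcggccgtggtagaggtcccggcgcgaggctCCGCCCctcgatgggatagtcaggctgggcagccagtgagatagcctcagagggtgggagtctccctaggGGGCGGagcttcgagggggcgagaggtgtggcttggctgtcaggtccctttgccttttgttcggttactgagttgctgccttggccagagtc
The *Dsp* window was 73.0% GC with 27 CpG dinucleotides, and the *Jup* window was 60.7% GC with 14, where the median over 32851 mouse promoters was 52.7% GC and 7 CpG. The *Dsp* window held 4 GC boxes, beginning 137, 102, 80 and 45 bases before the start, and *Jup* held 2, at 112 and 42 bases before it. At least 1 GC box lies in 35.7% of all promoters. *Jup* also held CCAAT boxes 238 and 167 bases before the start, letters found in 37.4% of promoters. The E-box letters CAGGTG, the core bound by Snail and Zeb repressors, lay 3 bases after the start of *Dsp*, and 20.2% of promoters hold these letters. They also lay 47 bases before the start in a *Pkp4* window (not shown), and *Pkp4* had a positive log2 fold change (0.24). Neither the TATA box (TATAAA, in 13.6% of promoters) nor the GLI core (GACCACCCA, in 0.3%) was found in the *Dsp*, *Jup* or *Pkp4* windows. No motif in *Dsp* or *Jup* overlapped another. These are matches of letters only, and binding was not measured.

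*Jup* encodes plakoglobin, the catenin that occurs in both desmosomes and adherens junctions. It lies on chromosome 11 (100368958 to 100397763, minus strand, mm10) with 9 annotated transcripts. *Jup* was at 52.5 and 55.4 TPM in *Shh*-/- and at 30.7 and 25.2 TPM in the WT pools. Both *Shh*-/- pools were therefore above both WT pools, and the gap was wider than the spread within either genotype (54.0 ± 2.02 against 28.0 ± 3.88 TPM, SD, n = 2 each). The log2 fold change was 0.93 (SE 0.14, 95% interval 0.57 to 1.29, limma adjusted p = 0.0688), the lowest adjusted p of the 8 members. In all, 4.37% of tested genes lay at least as far in the same direction. The transcripts of *Jup* are 58.8% GC. Among all tested genes the median log2 fold change was higher at higher GC content, at −0.16 for 4392 genes below 45%, 0.02 for 4444 genes from 45 to 50%, 0.19 for 4374 genes from 50 to 55% and 0.34 for 3677 genes at 55% or above. After each library was corrected for GC content and transcript length, the *Jup* log2 fold change was 0.50 (limma adjusted p = 0.122), with the *Shh*-/- pools still higher.

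Next to *Ctnnb1*, which encodes the related β-catenin of adherens junctions and Wnt signalling, plakoglobin was the minor catenin. *Jup* amounted to 4.98 and 5.01% of the *Ctnnb1* TPM in *Shh*-/- and to 3.31 and 2.68% in WT. By mean coverage per aligned Gb, a measure chosen after the data were seen, the same share was 15.9 and 14.7% in *Shh*-/- and 11 and 8.84% in WT. Coverage need not follow TPM for genes with several transcripts, such as *Jup*, so the size of this share is uncertain. *Ctnnb1* itself was at 1054.6 and 1105.8 TPM in *Shh*-/- and at 928.3 and 941.9 TPM in WT, a log2 fold change of 0.21 (limma adjusted p = 0.207). The share of *Jup* was thus higher in both *Shh*-/- pools by either measure, with a two-sided exact permutation p of 0.33, the smallest that 2 pools against 2 can give.

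Plakophilins cluster the desmosomal cadherins and recruit desmoplakin. *Pkp2*, the plakophilin of simple epithelia and of the heart, lies on chromosome 16 (16213318 to 16272712, plus strand). It was at 11.7 and 11.7 TPM in *Shh*-/- and at 8.89 and 8.68 TPM in the WT pools. The genotypes did not overlap and both pairs of pools were close, yet the log2 fold change of 0.37 (SE 0.14, 95% interval 0.01 to 0.74) did not pass the test (limma adjusted p = 0.197). *Pkp3*, a plakophilin found in most layered and simple epithelia, lies on chromosome 7 (141078218 to 141090510, plus strand). It was at 12.7 and 10.0 TPM in *Shh*-/- and at 8.13 and 7.22 TPM in WT. *Shh*-/- pool 1 was the highest, and the log2 fold change was 0.50 (SE 0.18, 95% interval 0.04 to 0.97, limma adjusted p = 0.184). With transcripts of 60.3% GC, *Pkp3* was the richest in GC of the 8 members. After the correction for GC content and transcript length its log2 fold change was 0.06 and that of *Pkp2* was 0.21.

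*Pkp4*, also called p0071, is found in adherens junctions as well as desmosomes, and lies on chromosome 2 (59160850 to 59355208, plus strand). It was at 35.2 and 27.3 TPM in *Shh*-/- and at 25.4 and 26.9 TPM in WT. *Shh*-/- pool 1 stood apart while pool 2 was close to the higher WT pool. The log2 fold change of 0.24 (SE 0.16, 95% interval −0.18 to 0.65, limma adjusted p = 0.395) became 0.06 without *Shh*-/- pool 1, 0.41 without *Shh*-/- pool 2 and −0.03 once GC content and length were corrected. *Pkp1*, the plakophilin of stratified epidermis, lies on chromosome 1 (135871395 to 135919207, minus strand) and was at 0.49 and 0.103 TPM in *Shh*-/-, listed at 0 in WT pool 4 and at 0.0433 TPM in WT pool 6. These levels were under the filter and were not tested.

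By TPM, *Pkp4* made up most of the plakophilin transcripts, with 58.6 and 55.6% of the sum of *Pkp1* to *Pkp4* in *Shh*-/- and 59.8 and 62.8% in WT. This rank depended on the measure, but coverage and TPM need not correspond for genes with several transcripts. *Pkp4* has 14 annotated transcripts and *Pkp2* has 3, so coverage is a poor guide to their shares. By mean coverage per aligned Gb, the *Pkp4* share was 11.1 and 10.6% in *Shh*-/- and 12.5 and 13.5% in WT, and *Pkp2* led with 52.8 and 57.1% against 56.2 and 54.4%. By either measure the *Pkp2* shares of the 2 genotypes overlapped and the *Pkp4* share was lower in both *Shh*-/- pools. Among *Pkp1* to *Pkp3* alone, *Pkp2* held 47.1 and 53.5% of the TPM in *Shh*-/- and 52.2 and 54.4% in WT, which overlap.

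Desmoplakin is the plakin through which the plaque holds keratin. *Dsp* lies on chromosome 13 (38151328 to 38198577, plus strand). It was at 10.46 and 13.48 TPM in *Shh*-/- and at 16.1 and 20.8 TPM in the WT pools. *Dsp* was lower in each *Shh*-/- pool than in either WT pool, although the gap between the nearest pools was smaller than the distance between the WT pools (12.0 ± 2.14 against 18.5 ± 3.30 TPM, SD, n = 2 each). The log2 fold change was −0.59 (SE 0.20, 95% interval −1.11 to −0.07, limma adjusted p = 0.173), and 5.64% of tested genes lay at least as far in that direction. The study named *Dsp* from these same libraries, so its direction here is not independent evidence. It counted *Dsp* as downregulated among its differentially expressed genes, whereas *Dsp* did not pass the test here. The study's methods do not name the test behind that call. The correction for GC content and length gave −0.79. The log2 fold change was −0.41 without WT pool 6. A provisional locus on the opposite strand, *Gm10129*, overlaps *Dsp* and was at 0.663 and 3.64 TPM in *Shh*-/- and at 4.86 and 8.28 TPM in WT, a log2 fold change of −1.41 (SE 0.55, limma adjusted p = 0.202). The libraries were stranded, but the strand setting of the counting is not given in the sources used here, so reads of the overlap may be shared.

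The desmosomal cadherins lie together on chromosome 18, where 9 such genes span 643.6 kb (19960930 to 20604521). Only *Dsg2* and *Dsc2*, the pair known from simple epithelia and heart, reached a mean of 1 TPM. *Dsg2* (20558074 to 20604521, plus strand) was at 14.2 and 14.3 TPM in *Shh*-/- and at 17.4 and 21.9 TPM in WT. The *Shh*-/- pools were both lower and nearly equal, with a log2 fold change of −0.43 (SE 0.16, 95% interval −0.85 to −0.01, limma adjusted p = 0.195). *Dsc2* (20030633 to 20059554, minus strand) was at 5.57 and 5.97 TPM in *Shh*-/- and at 6.60 and 8.16 TPM in WT. It was again lower in both *Shh*-/- pools, and its log2 fold change was −0.30 (SE 0.18, 95% interval −0.77 to 0.16, limma adjusted p = 0.346). Without WT pool 6 these values were −0.27 for *Dsg2* and −0.17 for *Dsc2*. The balance of the pair was nearly the same in each pool, with *Dsg2* at 71.8 and 70.2% of the desmosomal cadherin TPM in *Shh*-/- and at 72.2 and 72.6% in WT.

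The other cadherins of the cluster belong mostly to stratified epidermis and hair. *Dsc3*, the desmocollin of basal layers (19960930 to 20002097, minus strand), was listed at 0 in *Shh*-/- pool 1 and was at 0.0984 TPM in *Shh*-/- pool 2 and at 0.0789 and 0.113 TPM in WT. *Dsg3*, its usual partner in basal layers, was at 0.249 and 0.114 TPM in *Shh*-/- and at 0.0641 and 0.0613 TPM in WT. *Dsc1*, *Dsg1a*, *Dsg1b*, *Dsg1c* and *Dsg4* were listed at 0 in all 4 pools. These levels were too low for a comparison of genotypes.

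**Figure D2:**
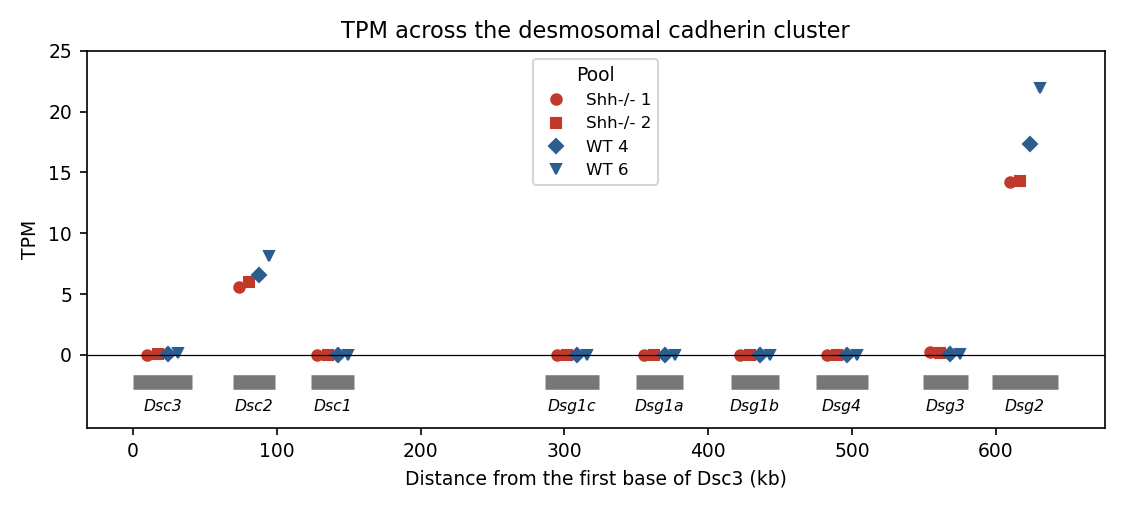
TPM of the 9 desmosomal cadherin genes of chromosome 18 in each of the 4 pools (1 symbol per pool), placed by distance in kb from the first base of *Dsc3*, with grey bars for the extent of each gene. *Dsg2* (14.2 to 21.9 TPM) and *Dsc2* (5.57 to 8.16 TPM) carry almost all of the signal, and the other 7 genes reach at most 0.249 TPM.

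*Perp*, a p63 target that encodes a tetraspan membrane protein of desmosomes, lies on chromosome 10 (18845071 to 18857073, plus strand). It was at 13.2 and 12.1 TPM in *Shh*-/- and at 14.7 and 24.6 TPM in WT. WT pool 6 was far above the other 3 pools, and WT pool 4 was close to the *Shh*-/- pools. The log2 fold change of −0.56 (SE 0.26, 95% interval −1.23 to 0.11, limma adjusted p = 0.255) was −0.21 without WT pool 6 and −0.91 without WT pool 4. *Trp63*, which encodes p63, had the same order of pools at 7.58 and 6.82 TPM in *Shh*-/- and 8.43 and 17.5 TPM in WT, a log2 fold change of −0.69 (limma adjusted p = 0.279). *Trp53* was at a log2 fold change of 0.24 (limma adjusted p = 0.398). The PMP22/EMP relatives of *Perp* went both ways, from *Emp3* at 0.53 (limma adjusted p = 0.131) to *Emp1* at −1.69 (limma adjusted p = 0.249), and 0 of 4 were called. *Emp1* was at 5.55 and 33.8 TPM in *Shh*-/- and at 49.1 and 46.7 TPM in WT, so its difference lay mainly in *Shh*-/- pool 1.

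**Figure D3:**
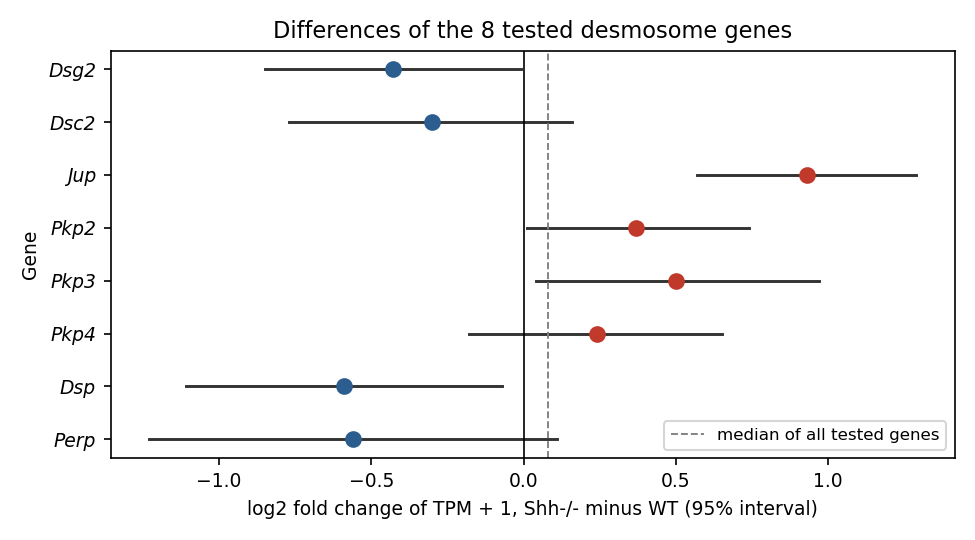
Log2 fold change (*Shh*-/- minus WT, on log2(TPM + 1)) of the 8 tested desmosome genes, with lines for the 95% intervals from limma and a dashed line at the median of all tested genes (0.08). *Jup*, at 0.93, has the interval farthest from 0, the 4 armadillo genes lie above 0 and *Dsp*, *Perp*, *Dsg2* and *Dsc2* lie below it.

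Ratios between the classes describe how the parts of the junction stood to one another within a pool. The ratio of *Jup* to *Dsp* was 5.03 and 4.11 in *Shh*-/- and 1.91 and 1.21 in WT (4.57 ± 0.647 against 1.56 ± 0.489, SD, n = 2 each), a difference of 1.58 on the log2 scale. The sum of the 5 armadillo genes was 5.70 and 5.13 times the sum of the 3 cadherins in *Shh*-/- and 3.04 and 2.25 times in WT, a difference of 1.05 on the log2 scale. Neither ratio overlapped between genotypes, which followed from the opposite directions of the genes they set side by side. Their two-sided exact permutation p of 0.33 was the smallest possible and carries no further information. Neither ratio was corrected for GC content or length. The ratio of *Dsp* to the cadherin sum differed less, by −0.2 on the log2 scale. It was 0.529 and 0.662 in *Shh*-/- and 0.671 and 0.688 in WT. These values did not overlap either, though *Shh*-/- pool 2 was nearly level with WT pool 4. By mean coverage per aligned Gb this ratio was 0.629 and 0.874 in *Shh*-/- and 0.802 and 0.949 in WT, which overlap. The total over all 10 members was 155.9 and 150.4 TPM in *Shh*-/- and 128.0 and 143.7 TPM in WT, of which *Jup* made up 33.7 and 36.8% against 24.0 and 17.6%.

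**Figure D4:**
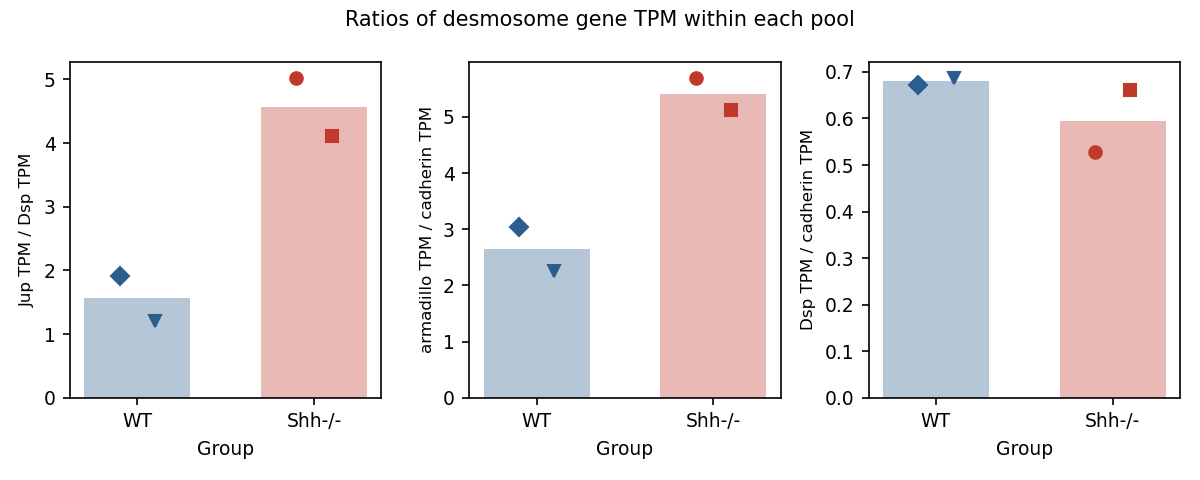
Ratios of summed TPM in each pool for *Jup* to *Dsp*, armadillo genes (*Jup* and *Pkp1* to *Pkp4*) to cadherins (*Dsg2*, *Dsc2* and *Dsc3*), and *Dsp* to cadherins, with bars for the mean of each genotype (n = 2), a circle and a square for *Shh*-/- pools 1 and 2, and a diamond and a triangle for WT pools 4 and 6. The *Jup* to *Dsp* ratio is 4.11 or more in *Shh*-/- and 1.91 or less in WT, while the *Dsp* to cadherin ratio lies between 0.529 and 0.688 in all 4 pools.

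Ranked by TPM in WT, *Jup* (28.0 TPM) and *Pkp4* (26.1 TPM) stood first and did not differ beyond the spread of their pools. *Perp* (19.7 TPM), *Dsg2* (19.6 TPM) and *Dsp* (18.5 TPM) followed and could not be separated, and *Pkp2* (8.78 TPM), *Pkp3* (7.68 TPM) and *Dsc2* (7.38 TPM) came next, of which *Pkp3* and *Dsc2* were not separated. By TPM in *Shh*-/-, *Jup* (54.0 TPM) led *Pkp4* (31.2 TPM) and *Dsg2* (14.2 TPM). Below them came *Perp* (12.6 TPM), *Dsp* (12.0 TPM), *Pkp2* (11.7 TPM) and *Pkp3* (11.3 TPM), each not separated from the next, ahead of *Dsc2* (5.77 TPM). Both *Perp* pools (13.18 and 12.07 TPM) did lie above both *Pkp2* pools (11.69 and 11.66 TPM). The order was not the same by mean coverage per aligned Gb, which need not follow TPM for genes with several transcripts. *Pkp4* has 14 annotated transcripts, *Jup* and *Pkp3* have 9 each and *Perp* has 1, so the coverage order is not an equal alternative. On that measure *Pkp4* was at 0.536 and 0.583 in WT, below *Pkp3* at 1.34 and 1.37. *Jup*, at 7.29 and 5.98 in WT, then overlapped *Dsp* at 6.83 and 9.71 and lay just below *Perp* at 7.37 and 12.3. In *Shh*-/- *Jup* led by coverage too, at 12.2 and 11.6, ahead of *Perp* at 6.32 and 6.01.

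The other genes of the junction and its attachments showed no called member in any list. Only 0.725% of all tested genes were called, so an absence of calls in lists this short says little. Of all 16972 tested genes, 9895 had a positive log2 fold change. Of 9 plakins and accessory proteins, 7 were tested and 4 had a positive log2 fold change, with a median of 0.10 beside 0.08 for all tested genes. They ranged from *Kazn*, which encodes a periplakin-binding protein, at 0.69 (limma adjusted p = 0.166) to *Pnn* at −0.17 (limma adjusted p = 0.321). All 4 armadillo relatives of adherens junctions had positive values, with a median of 0.37, from *Ctnnb1* at 0.21 to *Ctnnd2*, which encodes δ-catenin, at 1.0 (limma adjusted p = 0.128). Of 9 partners in desmosome assembly, 8 were tested and 6 had negative values, with a median of −0.09. The lowest was *Prkca*, which encodes the kinase PKCα that loosens desmosomal adhesion, at −0.82 (limma adjusted p = 0.114), and the highest was *Ndel1* at 0.22 (limma adjusted p = 0.347). Of 7 keratins, the filaments that desmosomes anchor, 6 were tested and 4 had negative values, with a median of −0.19. *Krt8* of simple epithelium was at 0.44 (limma adjusted p = 0.128) and *Krt5* of basal cells at −0.87 (limma adjusted p = 0.144).

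Markers of the cell types that could carry these transcripts were not level between the genotypes. Of 15 epithelial markers, 12 had positive log2 fold changes and 0 were called, with a median of 0.14 and a summed TPM of 951.6 and 802.5 in *Shh*-/- against 785.7 and 748.1 in WT. When each library was centred on the mean of these epithelial markers, *Dsp* was at −0.71 and *Jup* at 0.81, both with the direction they had before. The 6 markers of stratified epithelium, of which 5 were tested and 0 called, had a median of −0.35 and summed to 36.9 and 31.8 TPM against 24.3 and 34.4 TPM. *Tfap2a* was the highest of them at 1.54 (limma adjusted p = 0.0887). At 19.8 and 15.8 TPM in *Shh*-/- against 7.23 and 4.02 TPM in WT, it held the largest part of the *Shh*-/- sums. Of the 5 tested, 3 had negative values, and the basal keratin gene *Krt14* was listed at 0 in 3 of the 4 pools.

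Heart muscle and endothelium also express desmosomal or junctional genes, *Jup* and *Pkp2* among them. Of 8 cardiac markers, 7 were tested and all 7 had positive values (median 1.87). *Myh7* (2.13) and *Myh6* (1.76), the cardiac myosin heavy chains, were called by limma. The 8 summed to 181.1 and 296.6 TPM in *Shh*-/- and to 69.2 and 79.2 TPM in WT, and the atrial marker *Nppa* was listed at 0 in every pool. The 6 endothelial markers had a median of 0.70 with *Tie1* (1.17) called, and summed to 262.0 and 295.7 TPM against 183.1 and 180.1 TPM. Their part in the higher *Jup* and *Pkp2* values was not tested. Of the 7 neuronal markers 5 were called (median 2.25), and of the 7 mesenchymal markers 1 was called, *Twist1* (1.57), with a median of 0.30. The largest difference among the mesenchymal markers was in the other direction, in *Foxf1*, a HH target of foregut mesenchyme. It was at 0.848 and 9.57 TPM in *Shh*-/- and at 72.3 and 64.6 TPM in WT, a log2 fold change of −3.97 (limma adjusted p = 0.0976). None of 6 blood markers was called (median −0.30).

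Across the alternative settings the 3 plakophilins and *Jup* moved most with the joint correction for GC content and transcript length, and *Perp* and *Dsg2* moved most with the choice of WT pools.

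**Figure D5:**
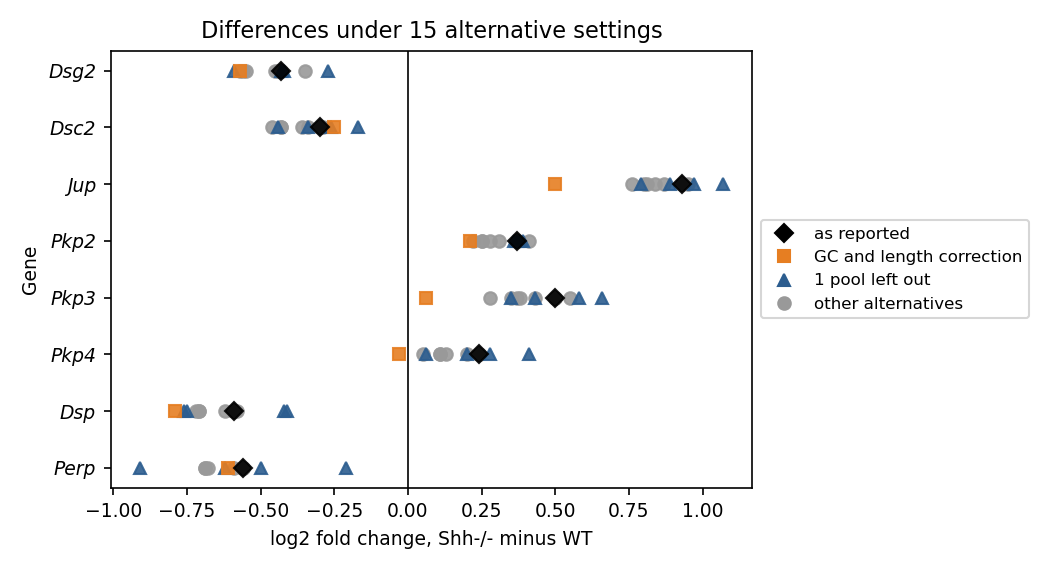
Log2 fold change of each of the 8 tested desmosome genes in the fit described above and under 15 alternative settings, with black diamonds for the reported value, orange squares for the GC and length correction, blue triangles for 1 pool left out and grey circles for the rest. *Jup* stays between 0.50 and 1.07 and *Dsp* between −0.79 and −0.41, while *Pkp3* reaches down to 0.06 and *Pkp4* to −0.03 with the correction for GC content and transcript length.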

How the data were processed

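Larynx RNA from 2 *Shh*-/- and 2 WT pools was analysed. The authors prepared poly(A)-selected, directional libraries and used HISAT2 2.1.0 and StringTie 1.3.6 (versions from the submitters' processing notes) with mm10. The deposited tables give StringTie coverage, FPKM and TPM per gene. Coverage is a signal without normalization between libraries. FPKM is scaled by aligned bases and TPM to a sum of 1000000, both by the authors. For genes with 1 transcript, FPKM was coverage divided by aligned bases. For genes with several transcripts that relation did not always hold, so ranks by coverage and by TPM can differ. No read counts were used, so no counting interval was computed. The tables carry no tests.

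TPM was summed per gene ID. limma 3.58.1 in R 4.3.3 (lmFit, eBayes with trend) was run on log2(TPM + 1), keeping 16972 genes whose mean TPM reached 1, without covariates, with Benjamini-Hochberg adjustment and a threshold of 0.05. Class sums, shares and ratios that were nonzero in every pool were given a two-sided exact permutation p. It cannot go below 0.33, so these quantities are read as descriptions. Aligned bases were the median ratio of coverage to FPKM over genes with 1 transcript (3314 to 3462 per library). GENCODE M21 gave GC content and length for 16887 tested genes, for a correction with natural splines of 5 degrees of freedom. RNA integrity numbers were 8 and 7.7 in *Shh*-/- pools 1 and 2 and 7.7 and 9 in WT pools 4 and 6. Total RNA was 260, 200, 210 and 310 ng in the same order, so WT pool 6 was the highest in both. The fit was tested on simulated data with changes larger than that of any member. It therefore does not show whether changes of the members' size could be called.

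The members and lists were chosen with earlier results of these data known. All members were named, and from each related list the highest and lowest tested gene and any called gene; from the marker lists, some genes were named after their values were seen. Alternatives were other pseudocounts (0.1), filters (none, or a mean TPM of at least 5), scalings, variance models and thresholds (0.1), each pool left out in turn, and coverage per aligned base, which was added after the data were seen. The study's own table of differential genes was not used.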

Additional observations from a re-analysis of the deposited data

How the results depend on the processing

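Over 15 alternatives, 119 of 120 log2 fold changes of the 8 tested members kept their sign, though *Pkp3* came down from 0.50 to 0.06 with the correction for GC content and length. None was called at 0.05, which says little where no gene at all was called, as in 5 of the settings. The exception in sign was *Pkp4*, at −0.03 with the same correction, under which only 2 members had *Shh*-/- pools wholly above the WT pools, against 4. With an adjusted p threshold of 0.1, 1 member (*Jup*) was called by limma in place of 0. The adjusted p of *Jup* ranged from 0.0674 to 0.240. With coverage per aligned Gb in place of TPM, the *Jup* to *Dsp* ratio was 2.39 in *Shh*-/- and 0.842 in WT, the armadillo to cadherin ratio 2.56 and 1.18, and the *Pkp4* share of plakophilins 10.9 and 13.0%.

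The number of genes called among all tested moved more: 123 as reported, 69 with a pseudocount of 0.1, 82 with a mean TPM of at least 5, 0 without a filter (5011 of 28524 at an unadjusted p under 0.05), 623 centred on epithelial markers, 0 on coverage per aligned base (4376 unadjusted) and 0 to 16 with a pool left out. Calls in the *Shh*-/- direction made up 77.2%, but 57.9% when centred on epithelial markers. Median centring moved the median of all genes from 0.08 to −0.05, and with it *Jup* to 0.80 and *Dsp* to −0.71. With 2 pools per genotype and 1 shallow library, precision rests on the spread between pools. No paired analysis was possible because the replicate numbers of the genotypes are not shared.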
